A study of Mus musculus with 2 samples.

Results

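The 10 genes described here are transcripts that have been used as candidate stem cell markers in oral and related epithelia. They are Slc1a3, Lrig1, Bmi1, Cd44, Cd34, Sox9, Gli1, Dlx1, Cd24a and Krt19, taken by symbol from the 27998 genes of the deposited count tables. All 10 were found in the tables. The cells came from the cheek lining (buccal mucosa) of 12-week-old female C57BL/6 mice, with no genotype or treatment given. Tissue from 10 mice was pooled into 1 suspension, sorted by flow cytometry for a high level of CD104 (the β4-integrin of hemidesmosomes) and barcoded by the 10x Chromium method. Both libraries (1 and 2) are technical replicates of that suspension, so the study holds 1 independent sample and no test over samples is possible. Every interval given below is a 95% counting interval and covers counting error only.

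The lining of the cheek is a stratified epithelium that is renewed by division in its basal layer. Basal cells hold the keratins Krt5 and Krt14, and cells that leave the layer switch to the mucosal keratins Krt4 and Krt13. Lineage tracing in several epithelia has used reporters at genes such as Slc1a3, Lrig1, Bmi1, Gli1, Dlx1 and Krt19 to label long-lived cells, while CD34, CD44 and CD24 have served as surface markers in cell sorting. The question addressed was whether any of these transcripts is held by a rare subset of the sorted basal cells.

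Depth was counted in unique molecular identifiers (UMIs, 1 per captured transcript). The 7215 barcodes of library 1 had 67962712 UMIs in all and a median of 7485, and the 9076 barcodes of library 2 had 73935792 and a median of 6459. A minimum of 500 genes and a maximum of 10% mitochondrial UMIs left 15470 of 16291 barcodes. The libraries shared 104 barcode sequences, 96 of them among the kept cells. Cells were divided by their UMIs per 10000. Resting basal cells had Krt14 of at least 40, Krt4 and Krt13 together under 80, and the 4 cycling genes Top2a, Cenpf, Ube2c and Ccnb1 together under 10. They numbered 2122 in library 1 and 2305 in library 2, with median depths of 6016 and 4916 UMIs. Cycling basal cells differed in having cycling genes of at least 10, and numbered 814 and 1115 with median depths of 8591 and 7061. Cells with Krt4 and Krt13 of at least 80, called differentiating, numbered 3390 and 4465 with median depths of 10410 and 8877. The remaining 581 and 678 cells were below both keratin cuts. These classes are ranges of a per-cell level, not cell types: 1769 and 2023 cells lay within a factor of 2 of the Krt14 cut, 2400 and 3000 within the same factor of the mucosal keratin cut, and 356 and 483 basal cells within it of the cycling cut. Genes outside the cuts matched the basal label. Krt5 was at 3695 and 3493 CPM (counts per 1000000 UMIs after summing a class within 1 library) in resting basal cells against 1261 and 1151 in differentiating cells. The basal transcription factor gene Trp63 was at 475.5 and 483.6 against 169.6 and 176.6, Itgb4 at 133.6 and 115.9 against 28.9 and 26.1, and the hemidesmosomal collagen gene Col17a1 at 373 and 340 against 73.3 and 67.5.

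The members fell into 3 kinds by how they were held in resting basal cells. Cd44 and Cd24a were detected widely, Slc1a3 was detected in about 10% of cells at equal depth and at its lowest in cells rich in mucosal keratins, and Lrig1, Bmi1, Sox9, Gli1, Dlx1, Cd34 and Krt19 were detected in few cells. Of those 7, Krt19 was concentrated in cells that also held the simple-epithelial keratins Krt7, Krt8 and Krt18. Sox9 was at a higher level in these cells, but most of its UMIs lay outside them.

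**Figure D1:**
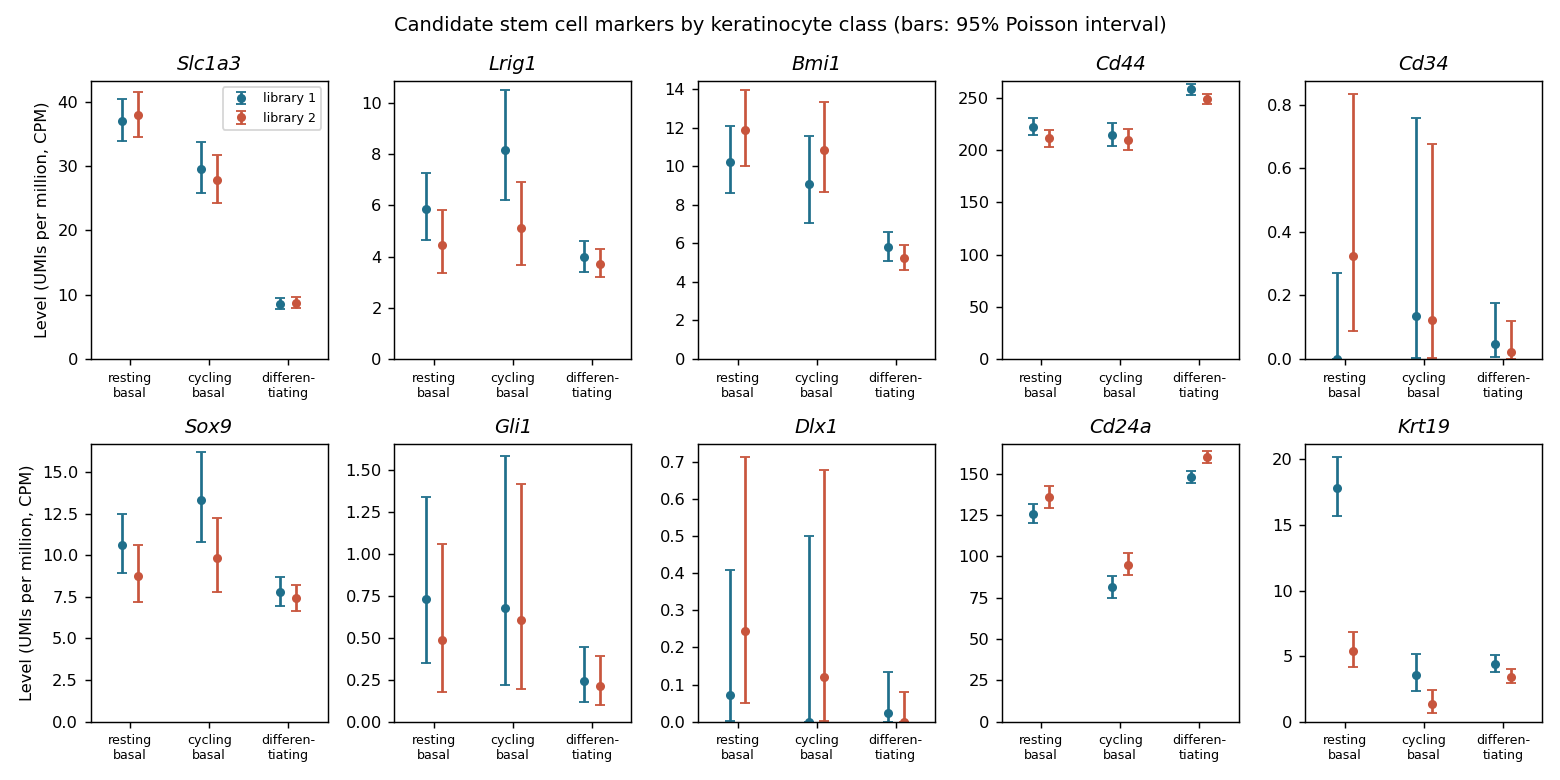
Level of each of the 10 genes (CPM, linear axes that start at 0 and differ between panels) in resting basal, cycling basal and differentiating cells, with 1 point per library and bars for the 95% Poisson interval. Slc1a3 sits at 37.0 and 37.9 in resting basal cells and at 8.62 and 8.69 in differentiating cells, and Cd34 and Dlx1 sit at or near 0 throughout.

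Slc1a3 encodes a glutamate and aspartate transporter of the plasma membrane (ENSMUSG00000005360, GRCm38 chromosome 15, 8634124 to 8710764, minus strand). Its level in resting basal cells was 37.0 CPM in library 1 and 37.9 in library 2. In cycling basal cells it was 29.6 and 27.8, and in differentiating cells 8.62 and 8.69. The libraries gave the same order of classes, and the intervals of the differentiating class (7.74 to 9.56 and 7.87 to 9.58) did not meet those of the resting class (33.9 to 40.4 and 34.6 to 41.6). A size rule took the place of a test: a gene was called where its ratio passed 1.5-fold (a log2 ratio of 0.58) in a single direction in both libraries and its mean over both classes reached 20 CPM. By this rule Slc1a3 was lower in differentiating cells, with log2 ratios of -2.10 (-2.30 to -1.91) and -2.13 (-2.32 to -1.93). It was the only member called of the 3 that reached the level minimum, and it reached that minimum through its resting level. Among all 5129 genes compared, 14.7% were called lower (755) and 7.97% higher (409), with an all-gene median of -0.15. Under median-of-ratios scaling the split was 530 lower and 537 higher, and Slc1a3 was at -1.97. A minimum of 50 CPM leaves Slc1a3 out of the comparison.

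Along the mucosal keratins Slc1a3 was lower step by step, in bins that left out cells with immune transcripts and little Krt14. In non-cycling cells of library 1 its level was 63.8 CPM where Krt4 and Krt13 were under 20 UMIs per 10000, 39.9 from 20 to 40, 27.8 from 40 to 80, 18.8 from 80 to 160, 11.4 from 160 to 320 and 4.71 above 320. In library 2 the same bins gave 43.4, 45.8, 28.4, 18.4, 13.4 and 4.40. The lowest bins of library 2 had overlapping intervals (31.8 to 57.9 and 40.6 to 51.4), so a peak in the cells poorest in mucosal keratins was seen in library 1 only. In the cells with immune transcripts the median of Krt4 and Krt13 was 25.9 and 24.4 UMIs per 10000, against 36.8 and 38.4 in resting basal cells. The lowest bins thus lie near the level in cells of another type. How far RNA from outside the cell sets a cell's place in them was not tested. After each cell was thinned to 3000 UMIs, 10.4% of resting basal cells in each library held a Slc1a3 UMI (9.15% to 11.8% and 9.15% to 11.7%), against 2.77% and 3.38% of differentiating cells. Without thinning the resting shares were 19.0% and 15.7%, and the differentiating shares 8.55% and 7.91% in cells of greater median depth. Against cycling basal cells the difference was within the size rule (log2 -0.32 and -0.45).

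**Figure D2:**
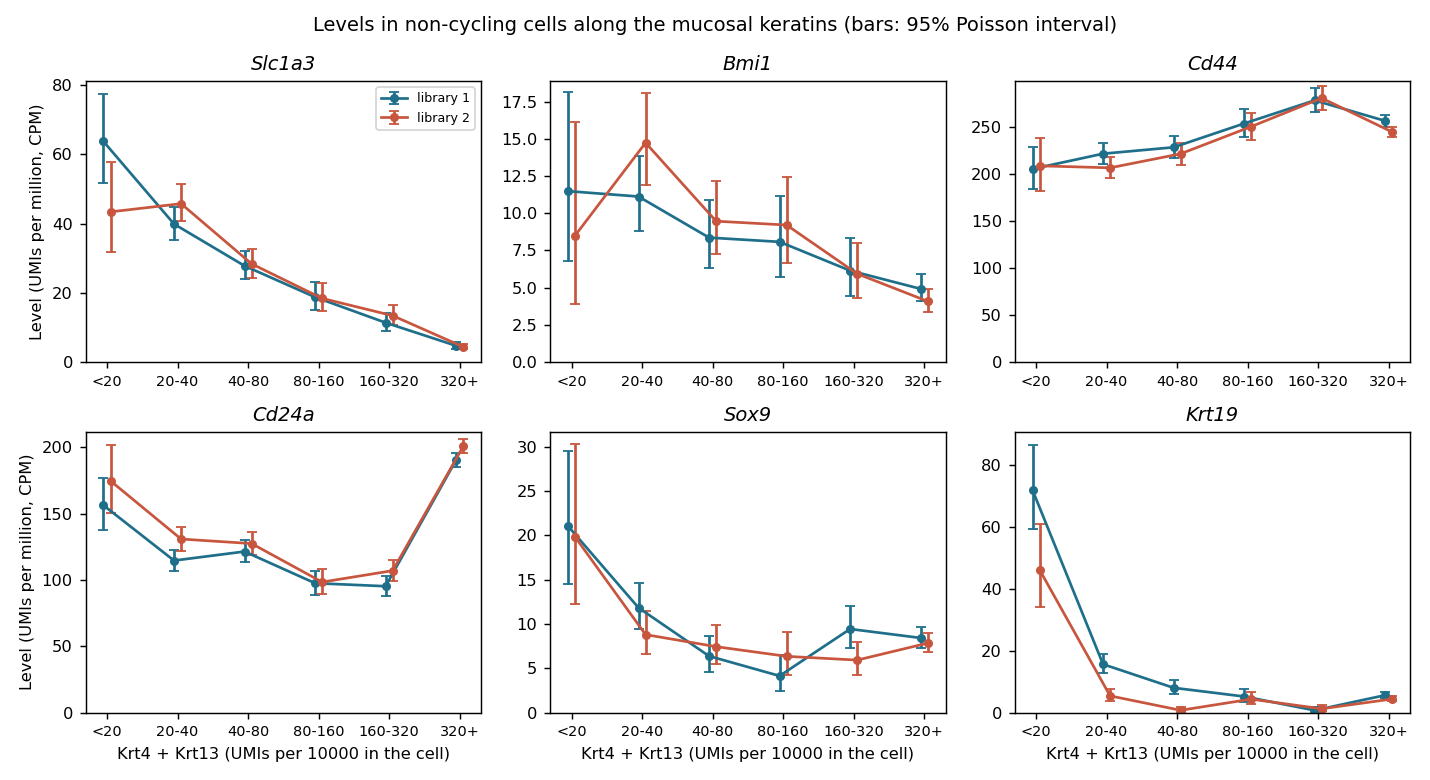
Level (CPM, linear axes starting at 0) in non-cycling cells binned by Krt4 plus Krt13 (UMIs per 10000), with 1 line per library and bars for the 95% Poisson interval. Slc1a3 goes from 63.8 and 43.4 in the lowest bin to 4.71 and 4.40 in the highest. Cd24a is at 156 and 175 in the lowest bin and at its highest level in the last (190 and 201), with lower values between.

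Cd44, the receptor for the matrix polysaccharide hyaluronan (ENSMUSG00000005087, chromosome 2, 102811141 to 102901665, minus strand), was the most widely detected member. It was at 222.5 and 211.2 CPM in resting basal cells, 214.7 and 209.6 in cycling basal cells and 258.0 and 248.7 in differentiating cells. At 3000 UMIs per cell, 48.0% and 49.2% of resting basal cells held it (71.9% and 64.9% without thinning), as did 44.6% and 44.8% of cycling and 54.1% and 53.4% of differentiating cells. The classes thus differed little, and neither comparison reached the size rule (log2 0.21 and 0.24 in differentiating cells, -0.05 and -0.01 in cycling cells). Its UMIs were spread over cells almost as counting alone gives in library 2, and somewhat more widely in library 1. The variance of UMIs over cells divided by their mean, which is 1 for pure counting, was 1.13 and 1.02 at equal depth. The median over the 5334 genes of at least 20 CPM was 1.02 in each library, and Cd44 was at their 88.7 and 46.6 percentile.

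Cd24a, a small glycosyl-phosphatidylinositol-anchored surface protein (ENSMUSG00000047139, chromosome 10, 43578284 to 43584265, plus strand), was also broad. Its level was 125.8 and 135.6 CPM in resting basal cells, 81.2 and 95.03 in cycling basal cells and 147.9 and 159.9 in differentiating cells. The cycling class was lowest in both libraries, at log2 -0.63 and -0.51 against resting cells, which missed the size rule in library 2. The differentiating class was at 0.23 and 0.24, but thinning all cells to equal depth gave a mean of -0.04 and leaving out the deepest 5% of cells gave -0.16, so no direction is stated. In non-cycling cells binned by Krt4 and Krt13 its level was high at both ends. It was 156 and 175 CPM under 20, 97.6 and 98.4 in the bin from 80 to 160, and 190 and 201 above 320. At equal depth 30.0% and 36.6% of cells in the lowest bin held Cd24a, and 35.3% and 33.6% in the last. The highest Cd24a counts in a single cell were 58 and 81 UMIs, both in the differentiating class. At equal depth 27.0% and 29.5% of resting basal cells held a Cd24a UMI (46.3% and 44.0% without thinning). Its variance over mean was 1.38 and 1.29, at the 95.6 and 94.3 percentile of genes of at least 20 CPM, and 41 and 38 cells held 3 or more UMIs where a Poisson count gives 13.0 and 16.6.

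The cells that could show free RNA were few. Cells with immune transcripts and little Krt14 numbered 23 and 33, with median depths of 6887 and 6975 UMIs. At equal depth Slc1a3 was in 0 of 23 of them, which allows a share of up to 13.0%, and in 2 of 33 (6.06%). Lrig1, Bmi1, Sox9, Gli1, Dlx1, Cd34 and Krt19 were in 0 of 23 and 0 of 33 (up to 9.09%) at equal depth. Without thinning Bmi1 was in 2 and 1 of these cells (8.70% and 3.03%), beside 6.50% and 6.25% of resting basal cells. Lrig1 and Sox9 were each in 1 and 0 of them, and Gli1, Dlx1, Cd34 and Krt19 in none. The limits at equal depth lie above the shares of the 7 genes in basal cells. The part of free RNA in their detection was therefore not measurable at this depth. Cd44 (43.5% and 42.4%) and Cd24a (34.8% and 36.4%) are also genes of immune cells, for which these cells give no background.

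Bmi1 and Lrig1 were low and found in few cells. Bmi1, a subunit of Polycomb repressive complex 1 (ENSMUSG00000026739, chromosome 2, 18677018 to 18686629, plus strand), was at 10.2 and 11.9 CPM in resting basal, 9.10 and 10.8 in cycling basal and 5.81 and 5.23 in differentiating cells. Its interval in differentiating cells (5.10 to 6.59 and 4.599 to 5.93) lay below that in resting cells (8.61 to 12.1 and 10.02 to 13.95), at log2 -0.82 and -1.18, although it was under the level minimum and not called. With no level minimum 3488 genes were lower in differentiating cells and 1124 higher. At equal depth 3.20% and 3.51% of resting basal cells held Bmi1 (6.50% and 6.25% without thinning). In differentiating cells, of greater median depth, the shares were 1.86% and 1.84% (6.61% and 5.24% without thinning). Lrig1, a transmembrane protein that restrains EGF receptor signalling (ENSMUSG00000030029, chromosome 6, 94604529 to 94700158, minus strand), was at 5.85 and 4.47 CPM in resting basal, 8.15 and 5.10 in cycling basal and 3.97 and 3.72 in differentiating cells. The resting and cycling intervals overlapped in both libraries. Lrig1 was in 1.79% and 1.61% of resting basal cells at equal depth (3.58% and 2.34% without thinning). No cell of that class held more than 3 UMIs of Lrig1 or more than 2 of Bmi1. Variance over mean was 0.98 and 1.04 for Lrig1 and 1.03 and 0.97 for Bmi1, but with nearly all cells at 0 or 1 UMI only a strongly concentrated subset would show in this measure.

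Sox9, a transcription factor of ductal and hair follicle progenitors (ENSMUSG00000000567, chromosome 11, 112782224 to 112787760, plus strand), was at 10.6 and 8.78 CPM in resting basal, 13.3 and 9.84 in cycling basal and 7.77 and 7.41 in differentiating cells. At equal depth 3.20% and 2.69% of resting basal cells held it (5.28% and 4.21% without thinning). Its variance over mean was 1.254 and 1.121, at the 97.8 and 94.2 percentile of the 5338 genes between 2 and 20 CPM. This spread lay partly in the Krt7, Krt8 and Krt18 cells described below.

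Gli1, Dlx1 and Cd34 were at the limit of detection. Gli1, the transcription factor induced by Hedgehog signalling (ENSMUSG00000025407, chromosome 10, 127329882 to 127341974, minus strand), had 10 and 6 UMIs in all resting basal cells (0.73 and 0.49 CPM), each in a different cell. In non-cycling cells with Krt4 and Krt13 under 20 per 10000 it had 3 UMIs in 243 cells of library 1 (1.91 CPM, 0.39 to 5.59) and 7 in 194 cells of library 2 (6.61 CPM, 2.66 to 13.6), against 0.71 and 0.64 in the bin from 20 to 40. The intervals of these bins met in library 1 and not in library 2. Its level was 0.68 and 0.61 CPM in cycling basal cells and 0.24 and 0.21 in differentiating cells. Dlx1, a homeobox transcription factor (ENSMUSG00000041911, chromosome 2, 71528113 to 71533981, plus strand), had 1 and 3 UMIs in resting basal cells (0.07 and 0.24 CPM). In cycling basal cells it had 0 and 1 UMIs, and in differentiating cells 1 and 0. Cd34, a sialomucin of hair follicle bulge, blood progenitor and endothelial cells (ENSMUSG00000016494, chromosome 1, 194938819 to 194961279, plus strand), had 0 UMIs in the resting basal cells of library 1, which allows up to 0.22 CPM and 0.14% of cells. In library 2 it had 4 UMIs in 4 cells (0.33 CPM). Among resting basal cells these counts show neither a subset nor its absence, because a cell that holds a few copies of such a transcript can give 0 UMIs.

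Krt19, a simple-epithelial type I keratin also found in some basal and ductal cells (ENSMUSG00000020911, chromosome 11, 100140810 to 100148665, minus strand), was the member with the most uneven spread. Its level was 17.8 and 5.36 CPM in resting basal cells, 3.53 and 1.34 in cycling basal cells and 4.38 and 3.44 in differentiating cells. The sign of its differences between classes is not stated, since with cells of other marker lists left out the mean log2 against resting cells went from -2.17 to 0.24 in cycling cells and from -1.33 to 1.46 in differentiating cells. The libraries disagreed on the resting level by more than their intervals (15.7 to 20.2 and 4.15 to 6.82). At equal depth a UMI was found in 1.18% and 0.78% of resting basal cells (1.74% and 0.95% without thinning). Variance over mean was 11.8 and 4.76, at the 99.9 and 99.8 percentile of genes of similar level. In library 1, 13 thinned cells held 3 or more Krt19 UMIs where a Poisson count of the same mean gives 0.05, and in library 2 there were 5 where it gives 0.003. The 10 highest cells held 79.9% and 81.8% of the Krt19 UMIs of the class, and the highest single cell held 46 and 16 UMIs. Krt19 was thus held by few cells in each library.

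**Figure D3:**
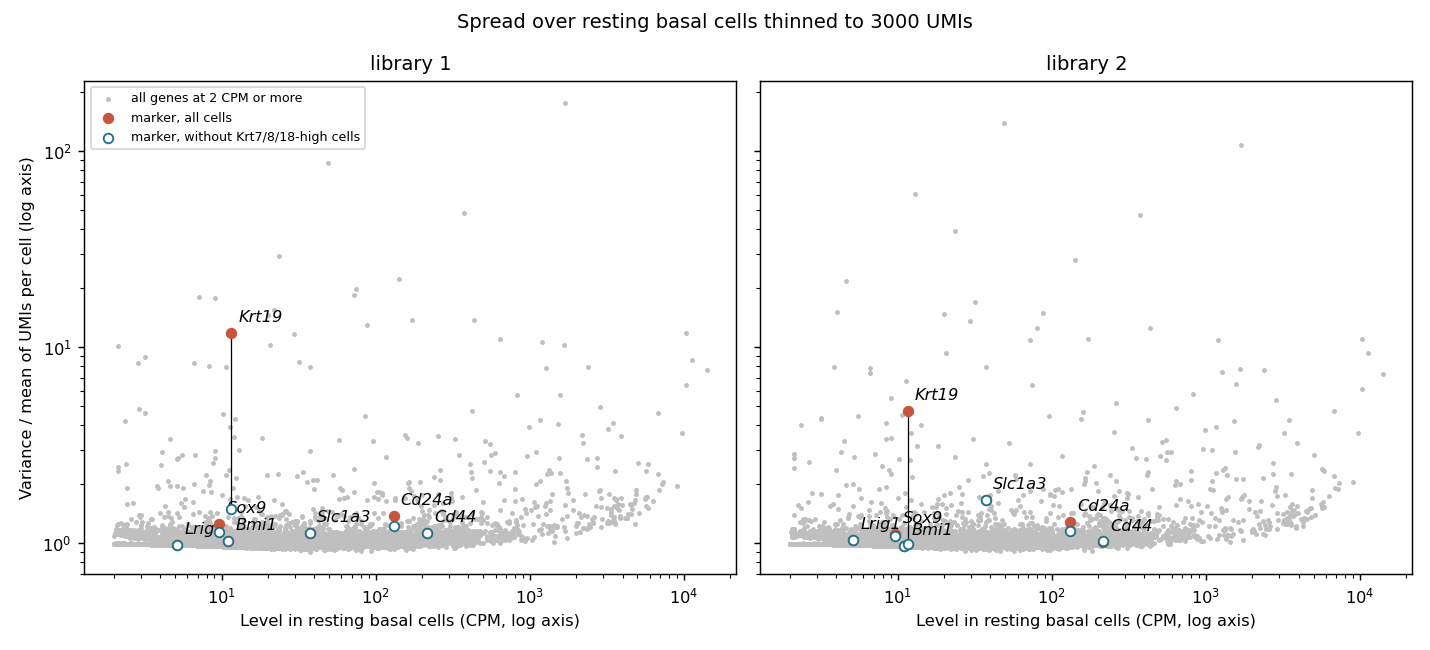
Variance of UMIs over resting basal cells divided by the mean (cells thinned to 3000 UMIs), against the level in the same class (CPM), by library. Both axes are log axes, and grey points are all genes of at least 2 CPM. Filled points are the members in all cells of the class, joined to open points without the Krt7, Krt8 and Krt18 cells described below. Gli1, Dlx1 and Cd34 were under 2 CPM and are not drawn. Among filled points Krt19 stands above the other members at 11.8 and 4.76, while Lrig1, Bmi1 and Cd44 lie between 0.97 and 1.13.

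The cells with Krt19 with the most UMIs largely belonged to a small group with other simple-epithelial keratins. Resting basal cells with Krt7, Krt8 and Krt18 together of at least 10 UMIs per 10000, a cut set after these values were seen, numbered 44 in library 1 and 37 in library 2. Since Krt19 was looked for in them because of its spread, the values that follow are a description. Krt19 was at 878 and 308 CPM in these cells against 2.08 and 1.07 in the remaining resting basal cells, and they held 88.5% and 80.3% of its UMIs in the class. At equal depth 34.1% and 27.0% of them held a Krt19 UMI, against 0.48% and 0.35% of the rest. Without these cells the variance over mean of Krt19 was 1.495 and 0.997. Krt19 therefore marked only part of the group: of 44 and 37 cells, 15 and 10 had a UMI, and 22 and 12 cells with Krt19 lay outside it.

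**Figure D4:**
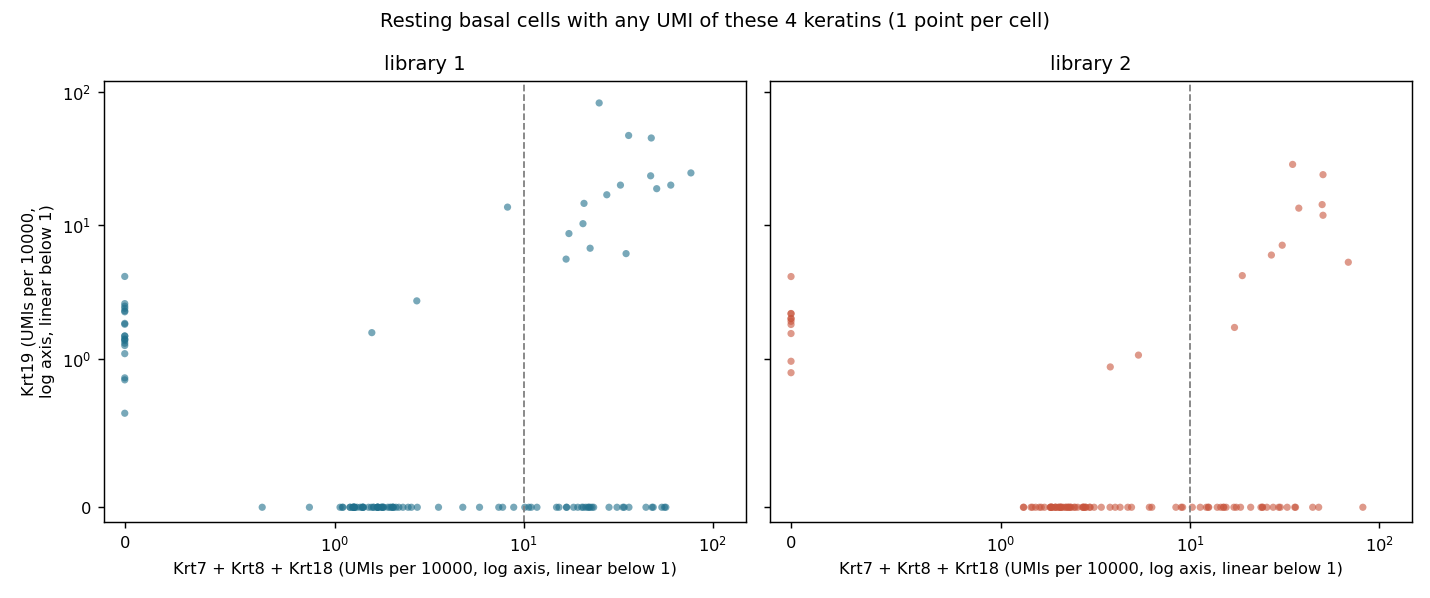
Krt19 against the sum of Krt7, Krt8 and Krt18 (both in UMIs per 10000, log axes that are linear below 1), with 1 point per resting basal cell that holds a UMI of any of them, by library. The cells with the most Krt19 lie among the 44 and 37 cells at or above a sum of 10.

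Cd24a and Sox9 were also high in the group. Cd24a was at 647 and 564 CPM there against 116 and 130 in the remaining resting basal cells, and 84.1% and 73.0% of the cells held it at equal depth against 25.8% and 28.8%. Sox9 was at 85.4 and 105 CPM against 9.23 and 7.42, in 25% and 27.0% of cells against 2.74% and 2.29%. Both held in each library with intervals that did not meet. The group carried a minority of the UMIs of these genes, 9.23% and 5.81% for Cd24a and 14.5% and 16.7% for Sox9. Slc1a3 went the other way, with 0 UMIs in library 1 (which allows up to 12.2 CPM) and 3 in library 2 (17.4 CPM, 3.60 to 50.9), against 37.7 and 38.2 in the rest. The library 2 interval overlapped that of the rest. Cd44 was at 118 and 169 CPM against 224 and 212, with overlapping intervals in library 2.

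Over all kept cells, 57 and 46 met the same keratin cut, with median depths of 4894 and 4063 UMIs. They held basal transcripts as well: Krt14 at 10890 and 12648 CPM, Krt5 at 3512 and 3287 and Itgb4 at 241 and 186. Trp63 was at 277 and 301 (223 to 339 and 234 to 382), below its 475.5 and 483.6 in resting basal cells. Of the other genes on the glandular marker list, Wfdc2 was at 1387 and 1183 CPM in them against 119 and 114 in all resting basal cells. The secretory genes Aqp5 (a water channel) and Muc5b (a gel-forming mucin) had 0 UMIs in both libraries, which allows up to 8.93 and 13.3 CPM, and Ltf (lactoferrin) had 5 and 23 UMIs (14.9 and 102 CPM), of which 1 cell of library 2 held 22. Whether such a cell is 1 cell or a doublet was not tested, and their median depth was below that of the resting basal class.

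The glandular list (Krt7, Krt8, Krt18, Wfdc2, Aqp5, Muc5b and Ltf) moved with several members among thinned resting basal cells. Its summed level was 3160 and 3037 CPM in Krt19-positive cells against 160 and 155 in negative cells, 598 and 946 against 182 and 156 for Sox9, and 404 and 318 against 118 in each library for Cd24a. In Slc1a3-positive cells it was 84.5 and 119 against 208 and 184. For Lrig1 (219 and 198 against 195 and 177) and Bmi1 (191 and 169 against 195 and 177) it was nearly the same on either side. The fibroblast list was at 0 to 1.40 CPM in cells positive for Slc1a3, Cd44, Cd24a, Lrig1, Bmi1, Sox9 or Krt19. The basal keratinocyte list was at 16032 and 16406 CPM in Slc1a3-positive cells against 17834 and 18473 in negative cells. For Cd24a it was at 18183 and 18880 against 17448 and 17998. A list of hair follicle or sebaceous genes was at 339 and 409 against 288 and 335 for Slc1a3. It was at 427 and 500 against 291 and 342 for Krt19, and at 255 and 328 against 294 and 343 for Sox9.

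Slc1a3 had a rare extreme of its own. A total of 4 cells held at least 20 Slc1a3 UMIs per 10000, a cut chosen after the values were seen. The cell in library 1 was a cycling basal cell with 21 UMIs (29.1 per 10000), and those in library 2 were resting basal cells with 14, 10 and 15 UMIs (23.8, 24.0 and 32.4 per 10000). The next highest cells had 9.48 and 8.32 per 10000. All 4 held 74 to 113 Krt14 UMIs. By a rule also set afterwards, genes at 5 times the basal mean or more in each of the 4, with their UMIs in the same order of cells, were Cdo1 (cysteine dioxygenase, 24, 19, 20 and 14 UMIs), Slc7a11 (the cystine and glutamate exchanger, 8, 8, 14 and 19), Gsta3 (a glutathione transferase, 5, 14, 6 and 10) and Wfdc2 (8, 18, 4 and 8). Cdo1 and Slc7a11 averaged only 7.94 and 3.18 CPM over basal cells. Cells with Cdo1 and Slc7a11 together of at least 10 UMIs per 10000 numbered 7 and 6, and 2 and 4 of them held Slc1a3. These counts include the 4 cells that the genes were picked from: outside them 1 of 6 and 1 of 3 held Slc1a3. Among all resting basal cells 19.0% and 15.7% held it without thinning, so these few cells show no link between Slc1a3 and the genes. Without the 4 cells the mean variance over mean of Slc1a3 went from 1.40 to 1.11, and its log2 ratio in differentiating cells was -2.05. The single library values had been 1.13 and 1.67, at the 89.2 and 97.4 percentile of genes of at least 20 CPM. The second came from the library with 3 of the cells, while the cell of library 1 was cycling and outside this class. At equal depth 25 and 27 resting basal cells held 2 or more Slc1a3 UMIs where a Poisson count gives 13.5 and 16.2.

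Co-detection was near what the separate shares give for most of the member pairs that could be compared. Of the pairs among the 10 genes, 13 had at least 5 expected cells in each library, and 1 of them (7.69%) was found at least 1.5 times as often in both as the separate shares give. That pair was Cd24a with Krt19, in 16 cells against 6.76 expected and in 9 against 5.32. The interval of its ratio in library 2 (0.77 to 3.21) includes 1, and the pair count was 0 with no thinning, with thinning to 2000 UMIs and with 4 changes of the cell filters or classes. It rests on the Krt7, Krt8 and Krt18 cells: without them the counts were 3 against 2.58 and 2 against 2.31. No pair was rarer by that factor in both libraries. In library 1 alone Cd44 with Krt19 was, in 3 cells against 12.0 expected (ratio 0.25, 0.05 to 0.73). In library 2 that pair was in 9 against 8.86. Cd44 with Cd24a was in 283 cells against 275 expected and in 312 against 335, and Slc1a3 with Cd24a in 44 against 59.8 and in 68 against 70.6. The interval of the last ratio excluded 1 in library 1 (0.53 to 0.99) and included it in library 2 (0.75 to 1.22). Without the Krt7, Krt8 and Krt18 cells, 1 of 11 pairs (9.09%) passed, Slc1a3 with Sox9, at 10 cells against 6.06 and 10 against 5.43. The intervals of those ratios (0.79 to 3.03 and 0.88 to 3.38) include 1. Among cycling basal cells 0 of 9 pairs passed and among differentiating cells 0 of 11.

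**Figure D5:**
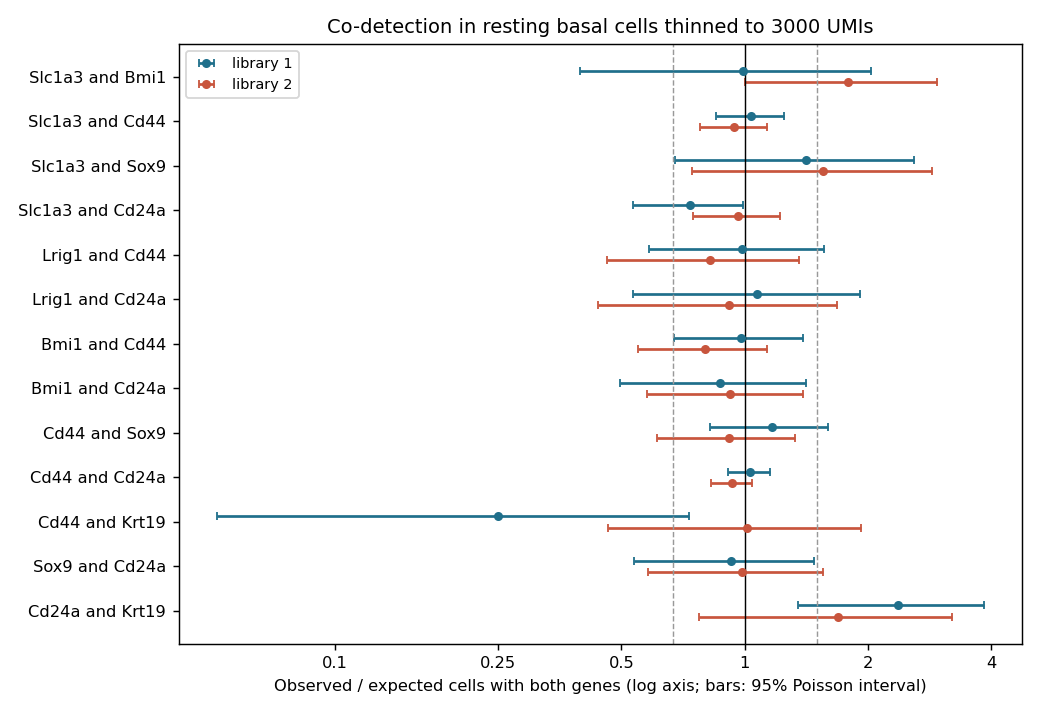
Observed over expected number of resting basal cells that hold both genes of a pair (cells thinned to 3000 UMIs), for the 13 pairs with at least 5 expected cells per library, with 1 point per library and bars for the 95% Poisson interval of the observed count. Cd24a with Krt19 lies at 2.37 and 1.69, and the points of most pairs lie near 1.

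The number of members per cell was close to what their separate shares give for up to 2 members. In library 1, 657 thinned resting basal cells held none of the 10 genes against 654.5 expected from the separate shares, and 52 held 3 against 61.1. In library 2 the values were 643 against 675 and 54 against 70.1. Cells with 4 members numbered 5 and 8 (3.76 and 4.13 expected), and 1 cell in library 1 held 5 (0.11 expected). Cells with 3 members were thus fewer than expected and those with 4 more, on small counts.

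Cells that held Slc1a3 differed from those without it in few genes. Thinned resting basal cells with a Slc1a3 UMI numbered 221 and 239. Of 5366 genes compared, 16 were higher in them (0.298%) and 26 lower (0.485%), while 12 (0.224%) passed 1.5-fold in opposite directions in the libraries. The highest by the smaller library ratio was Pappa, a secreted protease that cleaves IGF-binding proteins, at 321 against 163 CPM (log2 1.08 and 0.86). Serpinb7 (0.92 and 0.81), the G-protein regulator Rgs16 (1.03 and 0.79), the alarmin Il33 (0.77 and 0.77) and Zfp740 (0.88 and 0.76) followed. With cells thinned to 2000 UMIs these 4 were below the size rule, at mean log2 ratios of 0.17 for Serpinb7, 0.33 for Rgs16, 0.34 for Il33 and 0.26 for Zfp740, while Pappa stayed at 0.86 or more under every alternative run. Among the lowest, named after their values were seen, were Krt7 (-3.12 and -2.51), the stress keratin Krt16 (-2.10 and -2.02), Egln3 (-1.56 and -1.91) and the chitinase-like gene Chil4 (327 against 878 CPM, -1.55 and -1.29). The Krt7 ratios rest on 4 and 5 UMIs in cells with Slc1a3. Without thinning Krt7 was in 79 and 70 resting basal cells, and the highest 22 and 24 held 68.3% and 72.5% of its UMIs. The Krt7, Krt8 and Krt18 cells were cut partly by Krt7, so its ratios are not separate from their Slc1a3 levels. The numbers of genes past 1.5-fold moved most with 1 library left out: library 1 alone gave 330 and library 2 alone 284.

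Cells with Cd44 (1018 and 1135) hardly differed from those without it. None of 5364 genes was higher (0%) and 1 was lower (0.0186%), with 3 (0.0559%) in opposite directions. The lower gene was BC037156, of which 3 cells held 77.0% and 84.9% of the UMIs. The genes with the highest ratios, none past the rule, were Gars, Borcs5, Ipmk, Camk2d and Pcmtd2 at 0.41 to 0.75. Cells with Cd24a (574 and 681) had 18 of 5390 genes higher (0.334%), 2 lower (0.0371%) and 2 in opposite directions. The highest were the sodium pump subunit genes Fxyd2 (log2 5.19 and 4.40) and Atp1b1 (3.77 and 2.62), the chemokine Cxcl17 (3.11 and 4.15), Krt7 (119 against 12.1 CPM, 3.60 and 2.92) and the protease inhibitor Spink5 (2.90 and 2.17). Fxyd2, Cxcl17 and Atp1b1 were at 1.37 to 3.89 CPM in cells without Cd24a and reached the level minimum only through the cells with it. With cells of other marker lists left out Cxcl17 turned to -0.25 and Atp1b1 was at 1.24, and without the Krt7, Krt8 and Krt18 cells Spink5 was at 0.88. The lower ones were BC037156 and the proteoglycan decorin, Dcn (121 against 206 CPM, -0.91 and -0.64). Without the Krt7, Krt8 and Krt18 cells 7 genes passed for Cd24a, and Krt7 was at a mean log2 of 0.85.

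The relatives and pathway partners of the members, from lists of family and pathway genes, were counted in the same comparisons, and their counts stand beside the 14.7% lower and 7.97% higher of all genes. In differentiating against resting basal cells the SOX family had 0 higher and 4 lower of 5 measured, with a median log2 of -0.94 beside the all-gene median of -0.15. Sox4 was at 25.01 against 89.1 CPM, Sox15 at 79.6 against 153, Sox6 at 18.9 against 40.1 and Sox21 at 31.6 against 53.5, while Sox2, a factor of oral epithelial identity, was at 72.6 against 70.6. Among hyaluronan and CD44 partners 0 were higher and 3 of 4 lower (median -0.83): the membrane to actin linker genes Msn (15.4 against 49.2 CPM) and Rdx (125 against 202) and the hyaluronidase gene Hyal2 (21.0 against 41.4). Their relative Ezr was at 159 against 116 and did not pass. So the level of Cd44 differed by less than 1.5-fold between classes in which 3 of its partners passed.

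Of the LRIG and EGF receptor list 1 was higher and 2 lower of 4 (median -0.16), with Erbb2 at 32.3 against 17.9 CPM, Egfr at 36.9 against 60.2 and Lrig3 at 16.4 against 26.3. The Hedgehog list had 1 gene measured of 10, the signal transducer Smo, which was lower (21.0 against 41.0 CPM). The ligand genes Shh, Ihh and Dhh were at 0 to 0.11 CPM in resting basal cells. Of the amino acid transporters related to Slc1a3, Slc1a4 was the only one measured and was lower (15.2 against 29.5 CPM). No DLX family gene reached the level minimum.

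Other candidate markers gave 3 higher and 6 lower of 16 measured (median -0.19). Among those with the highest level, Ly6d was higher (4562 against 1203 CPM), Krt15 (791 against 2377) and the α6-integrin gene Itga6 (78.0 against 340) were lower, and Ly6a and Pitx1 did not pass. The protein C receptor gene Procr, named after its values were seen, was at 4.82 against 36.5 CPM. Between cycling and resting basal cells 0 of the 3 measured members passed in either direction, where 8.81% of 5480 genes were higher and 2.88% lower. Over the partner and other candidate lists Hyal2 (25.7 against 41.4 CPM) and Procr (19.0 against 36.5) were lower in cycling cells and none was higher. A level minimum on the mean over both classes leaves out low genes that fall steeply, such as Has3 (5.39 against 26.2 CPM in differentiating cells), so the counts cover the measured genes only.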

How the data were processed

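The libraries were used as deposited: the values are UMI counts per gene and barcode, and per the submitters' processing notes they were made with Cell Ranger on mm10. Its version and the annotation are not given in the sources used here. The deposited barcodes had at least 3362 and 3149 UMIs, so low barcodes had been removed beforehand. Filtering left out 308 and 513 barcodes, all for mitochondrial UMIs. No doublet caller was used; leaving out the 5% of cells with the most UMIs was an alternative.

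UMIs were summed per class and library and scaled to CPM, with exact Poisson intervals for levels and exact binomial (Clopper-Pearson) intervals for shares. A count of 0 allows up to 3 counts. For detection, co-detection and spread each cell was thinned to 3000 UMIs (seed 1). With 1 suspension no p-value was computed, and a difference was called by size (1.5-fold in both libraries, mean of at least 20 CPM). Levels and intervals used scipy 1.17.1 and pandas 2.3.3, thinning used numpy 2.4.6 and figures used matplotlib 3.10.9, under Python 3.11.15. Coordinates are from GENCODE M21 on GRCm38, the assembly of mm10.

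The members, the gene lists and the classes were chosen with earlier results of these data known. Named genes were the 10 members, the 5 genes with the highest smaller library ratio in cells positive for each member that had at least 100 positive cells per library, and up to 6 genes of at least 20 CPM by level from each partner list. Genes named outside this rule are said to be so where they appear. A few genes that the rule names, and the results that need them, are not reported here.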

Additional observations from a re-analysis of the deposited data

How the results depend on the processing

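Intervals cover counting error within 1 suspension, so the spread between animals is unknown, and depth limits Gli1, Dlx1 and Cd34 throughout. Over 18 alternatives Slc1a3 stayed lower in differentiating cells (log2 -2.42 to -1.88), and Bmi1 stayed below 0 (-1.19 to -0.82). Krt19 did not keep its sign: its mean log2 of -1.33 went to 1.46 when cells with markers of other cell types were left out and to 1.29 without the Krt7, Krt8 and Krt18 cells, an alternative chosen after seeing the data. In cycling cells its -2.17 went to 0.24 and -0.47 under the same changes. The cause of the changes below was not tested, except where fewer genes or samples entered.

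With no level minimum, 4 members were lower in differentiating cells (1124 genes higher and 3488 lower) and 1 in cycling cells (1107 higher and 991 lower). With at least 50 CPM, 0 members were lower in differentiating cells (234 genes higher and 314 lower), and the cycling comparison gave 257 higher and 66 lower. With 1 library left out, 0 to 1 members were lower in cycling cells, 1 to 3 pairs were co-detected more often and 0 to 1 less often, 1 to 2 members had a variance over mean of at least 1.5, and the genes past 1.5-fold numbered 284 to 330 for Slc1a3, 40 to 42 for Cd44 and 53 to 90 for Cd24a. No member passed that variance with cells of other markers left out (0) or without the Krt7, Krt8 and Krt18 cells (0).

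The pair Cd24a with Krt19 was lost (0 pairs) at 5% mitochondrial UMIs, a Krt14 cut of 80, a mucosal cut of 40, S-phase cells moved to cycling, thinning to 2000 UMIs and no thinning, and a cycling cut of 20 gave 2 pairs. Genes past 1.5-fold for Slc1a3 (42) became 105 at 5% mitochondrial UMIs, 85 at a Krt14 cut of 80, 74 at a mucosal cut of 40 and 115 at 2000 UMIs. Those for Cd44 (1) became 4, 3, 7 and 4 under the same changes, 2 at a mucosal cut of 160, 2 at a cycling cut of 20 and 9 where 2 UMIs marked a positive cell. Those for Cd24a (20) became 50 at a mucosal cut of 40, 9 without cells of other markers, 118 where 2 UMIs marked a positive cell and 7 without the Krt7, Krt8 and Krt18 cells. Signs reversed for Cxcl17 with Cd24a when cells of other markers were left out (-0.25), and for Gars (-0.12) and Ipmk (-0.058) with Cd44 at 2000 UMIs. No paired analysis was possible because the series has a single group.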

Other observations

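The 581 and 678 cells below both keratin cuts formed no class of the comparisons, and cells with immune transcripts were not removed from them. Those that were not cycling, apart from the cells with immune transcripts, were among the cells binned by mucosal keratins. As a whole, the cells below both cuts were rich in the cycling gene Top2a (600 and 540 CPM) and held Trp63 at 465 and 479 CPM. Slc1a3 was at 31.8 and 34.4 CPM in them, Cd44 at 217 and 225, Cd24a at 79.95 and 98.4, Sox9 at 8.56 and 9.01, Bmi1 at 8.56 and 8.53 and Krt19 at 8.56 and 6.16. Lrig1, at 10.8 and 7.11 CPM, was at its highest of the 4 classes in both libraries, with intervals (7.82 to 14.4 and 4.80 to 10.2) that overlapped those of cycling basal cells (6.22 to 10.5 and 3.68 to 6.90). Gli1 was at 0.73 CPM in library 1 (0.15 to 2.14), as in resting basal cells (0.73), and at 2.84 in library 2 (1.47 to 4.97), against 0.49 (0.18 to 1.06) in resting basal cells. Dlx1 had 0 UMIs in both libraries, which allows up to 0.73 and 0.71 CPM.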
